A study of Mus musculus with 4 samples.

Results

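The heat shock chaperones described here are 10 genes of the mouse: Hspa1a and Hspa1b (inducible HSP70), Dnajb1 and Hsph1 (partners of HSP70), Bag3 and Hspb1 (a co-chaperone and a small heat shock protein), Hspa8 (constitutive HSP70), Hsp90aa1 (HSP90α), and Hspd1 and Hspe1 (the mitochondrial chaperonin and its lid). They were chosen by symbol from the gene list of the deposited matrices, and all 10 were found among its 31017 symbols. All 10 passed the minimum of 50 unique molecular identifiers (UMIs, each counting 1 captured transcript) in the kept cells, with 1504 UMIs for Hspa1b and 333424 for Hsp90aa1 as the extremes, and 16616 genes passed it in all.

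The genes were followed in 4 single-cell RNA libraries of testis, 1 per group, all from mice of the C57BL/6 strain labelled Acr-Gfp tg. For 2 libraries, fragments of testes of 7 days postpartum (dpp) were held for 2 or 7 days under a PDMS ceiling chip, on agarose with α-MEM and AlbuMAX. The other libraries came from testes of 9 dpp and 14 dpp that were not cultured, so each cultured library has an in vivo library of the same total age beside it. The cultured testis in this set is a fragment of an immature organ without blood flow, and all libraries share the transgene and release of the cells with collagenase and trypsin at 37°C. The labels give neither the number of animals per library nor the temperature of the culture, the text on growth is the same for cultured and uncultured samples, and the text on library making speaks of female gonads.

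Heat shock proteins hold other proteins in shape. HSP70 binds unfolded stretches of a protein, J-domain partners such as DNAJB1 deliver the client, exchange factors such as HSPH1 and BAG3 release it, and HSP90 finishes many signalling proteins and receptors. When unfolded proteins build up, the transcription factor HSF1 binds inverted GAA units in the promoters of the inducible genes and their transcripts rise within minutes, whereas HSPA8 is made at all times. The mammalian testis works below body temperature, and its germ cells use chaperones of their own, such as the HSP70 family member HSPA2 in meiosis, while the Sertoli cell is the somatic cell that nourishes them.

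All genes lie on GRCm38 as follows, by Ensembl gene in GENCODE M21. Hspa1a (ENSMUSG00000091971) is at chr17:34969190-34972156 and Hspa1b (ENSMUSG00000090877) at chr17:34956436-34959238, both on the minus strand with 9951 bases between them. Hspd1 (ENSMUSG00000025980, chr1:55077835-55088243, minus strand) and Hspe1 (ENSMUSG00000073676, chr1:55088132-55091307, plus strand) lie head to head and overlap by 112 bases. Hspb1 (ENSMUSG00000004951) is at chr5:135887919-135889563 on the plus strand and Hsph1 (ENSMUSG00000029657) at chr5:149614287-149636376 on the minus strand. Dnajb1 (ENSMUSG00000005483, chr8:83608193-83612653), Hspa8 (ENSMUSG00000015656, chr9:40800984-40810087) and Bag3 (ENSMUSG00000030847, chr7:128523616-128546981) are on the plus strand, and Hsp90aa1 (ENSMUSG00000021270, chr12:110690605-110702728) is on the minus strand. The transcripts of Hspa1a (2967 bases) and Hspa1b (2803 bases) share 2108 bases in identical stretches of at least 50 bases, but none in the last 500 bases, the end a 3′ library reads. How the authors' counting divided reads between the pair is not given in the sources used here, so the split between Hspa1a and Hspa1b is uncertain. The predicted gene Gm20481 runs over Hspa1a on the opposite strand for 2225 bases. It had 0 to 3 UMIs in the Sertoli cells of each library.

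The promoters of 5 members are shown because they carry the letters that HSF1 is known for, and because Hspa1a, Hspb1 and Bag3 were 2-fold higher in Sertoli cells of the 7-day culture than at 14 dpp whereas Hsph1 and Hspe1 were not. RefSeq promoter windows (GRCm38.p6, 250 bases before to 50 bases after a start site) were at hand for 8 of the 10 members, in 11 windows. Windows were searched for inverted pairs, GAANNTTC and TTCNNGAA, which read the same on both strands, and for runs of 3 alternating units. Overlapping matches were counted each. The sequences are 5′ to 3′ along the gene, with the units of each match in capitals. They are Hspa1a at chr17:34972107-34972406 (minus strand), Hspb1 at chr5:135887669-135887968 (plus), Bag3 at chr7:128523333-128523632 (plus), Hsph1 at chr5:149636287-149636586 (minus) and Hspe1 at chr1:55087898-55088197 (plus).
Hspa1a: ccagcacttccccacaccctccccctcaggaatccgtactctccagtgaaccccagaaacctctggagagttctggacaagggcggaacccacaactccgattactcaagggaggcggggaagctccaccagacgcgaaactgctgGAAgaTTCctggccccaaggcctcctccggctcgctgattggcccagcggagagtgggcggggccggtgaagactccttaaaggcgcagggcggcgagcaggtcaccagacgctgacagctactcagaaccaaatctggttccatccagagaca
Hspb1: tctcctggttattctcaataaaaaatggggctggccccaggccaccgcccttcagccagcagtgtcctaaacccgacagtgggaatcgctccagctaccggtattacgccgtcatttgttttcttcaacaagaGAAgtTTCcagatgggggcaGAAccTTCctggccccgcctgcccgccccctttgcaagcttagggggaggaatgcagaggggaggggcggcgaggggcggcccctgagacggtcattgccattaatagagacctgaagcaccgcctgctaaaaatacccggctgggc
Bag3: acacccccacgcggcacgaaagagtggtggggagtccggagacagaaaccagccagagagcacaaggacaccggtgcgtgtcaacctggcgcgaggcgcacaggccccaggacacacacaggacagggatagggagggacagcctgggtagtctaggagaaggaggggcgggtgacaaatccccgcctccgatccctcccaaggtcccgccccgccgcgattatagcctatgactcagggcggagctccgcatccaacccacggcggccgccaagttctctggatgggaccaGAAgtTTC
Hsph1: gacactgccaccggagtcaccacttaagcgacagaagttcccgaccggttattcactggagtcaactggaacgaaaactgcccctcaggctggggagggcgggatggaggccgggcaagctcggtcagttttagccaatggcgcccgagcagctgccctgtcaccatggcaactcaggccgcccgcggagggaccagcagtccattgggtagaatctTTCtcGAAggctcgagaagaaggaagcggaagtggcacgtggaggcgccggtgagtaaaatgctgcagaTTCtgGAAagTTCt
Hspe1: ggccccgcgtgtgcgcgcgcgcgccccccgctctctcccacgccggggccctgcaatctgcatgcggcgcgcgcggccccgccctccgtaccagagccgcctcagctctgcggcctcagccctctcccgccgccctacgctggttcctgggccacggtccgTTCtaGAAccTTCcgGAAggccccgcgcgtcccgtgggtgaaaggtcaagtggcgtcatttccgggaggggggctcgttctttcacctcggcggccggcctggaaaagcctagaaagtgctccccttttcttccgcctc

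Hspa1a held 1 pair, which began 104 bases before the start site. The Hspa1b window had the same pair at the same place and differed from that of Hspa1a at 4 of 300 positions. Hspb1 held pairs 117 and 97 bases before the start, and Bag3 held 1 that began at base 42 after it. Hsph1 had a pair 33 bases before the start and a run of 3 units from base 36. The window of Hspe1 had 3 overlapping pairs from 89 bases before the start, which make 2 overlapping runs, and 1 window of Hspd1 shows the same letters from the other strand. Neither of the 2 windows of Dnajb1 held a match. Of 32851 mouse windows of this length, 7.86% held GAANNTTC, 8.52% held TTCNNGAA, 15.1% held either and 0.603% held a run of 3. The longest runs of units were in Hsph1, Hspe1 and Hspd1, none of which was 2-fold higher in Sertoli cells of either culture than in vivo at the same age. Dnajb1, 2-fold higher at the later time only (and below that with classes taken from clusters, 0.90), showed none in these windows. A match describes the letters only.

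The matrices held 24851 cell barcodes and between 34491701 and 60829941 UMIs per library, of which 23038 cells were kept. Pairs of libraries shared 35 to 86 barcode sequences. Cells were put in a class when at least 3 markers of it were detected and it held at least 80% of the cell's marker UMIs. Below, sets of 4 values are in the order of 2 and 7 days of culture, then 9 and 14 dpp. The Sertoli class had 1168, 533, 865 and 845 cells. In every library all 12 Sertoli markers had UMIs in it (summed level 17370 to 21241 UMIs per 1000000 of the class, CPM), against 61.3 to 200.2 CPM in germ cells. Germ markers summed to 289.8, 365, 314 and 817 CPM in the Sertoli class. Stromal or myoid markers summed to 200.5 CPM in the 2-day culture and to 86.6 to 95.5 CPM in the other libraries, with Pdgfrb at 0 in the 7-day culture and at 9 dpp. These markers set the class. Stromal genes not used for classes summed to 5124, 2964, 3073 and 2835 CPM in the Sertoli class, and Sertoli genes not used to 4562, 6135, 7553 and 10220 CPM, so the 2-day culture was highest in the former and lowest in the latter. The part of this in the results on Sertoli cells was not tested. The median depth of a Sertoli cell was 3352, 9112, 14101 and 9180 UMIs, and its median mitochondrial share was 4.41%, 6.07%, 5.73% and 8.82%. Between 11 and 83 further cells per library had a Sertoli share of 70 to 80%, and 29 to 164 cells of the class lay at 80 to 90%. Clustering put most Sertoli cells of both cultures in 1 cluster (716 of the 2-day and 505 of the 7-day cells), those of 9 dpp in another (847 cells) and those of 14 dpp in a further one (726 cells). A low-depth cluster that stayed unnamed held 451 of the 2-day cells. Each group is 1 library, so there is no replicate check and no test, a library and its condition cannot be told apart, and all intervals are 95% intervals for counting error only.

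In Sertoli cells, the inducible HSP70 genes were the members that differed most between the 7-day culture and 14 dpp. Hspa1a, an inducible HSP70 gene, stood at 317 CPM (304 to 331, 2060 UMIs) in the 7-day culture and at 46.2 CPM (42.1 to 50.6, 472 UMIs) at 14 dpp. It stood at 59.6 CPM (54.0 to 65.6) in the 2-day culture and at 95.2 CPM (90.3 to 100.2) at 9 dpp. The 7-day culture was thus far above the other libraries, the 2-day culture was below its partner of the same age, and no neighbouring intervals overlapped. Hspa1b, its near-identical copy, had 30.2 CPM (26.1 to 34.7) in the 7-day culture but 3.87 CPM in the 2-day culture, 6.72 CPM at 9 dpp and 4.31 CPM at 14 dpp. The counting intervals of Hspa1b overlapped between the 2-day culture (2.55 to 5.63), 9 dpp (5.47 to 8.18) and 14 dpp (3.13 to 5.78). These libraries could not be ordered by such intervals alone.

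**Figure D1:**
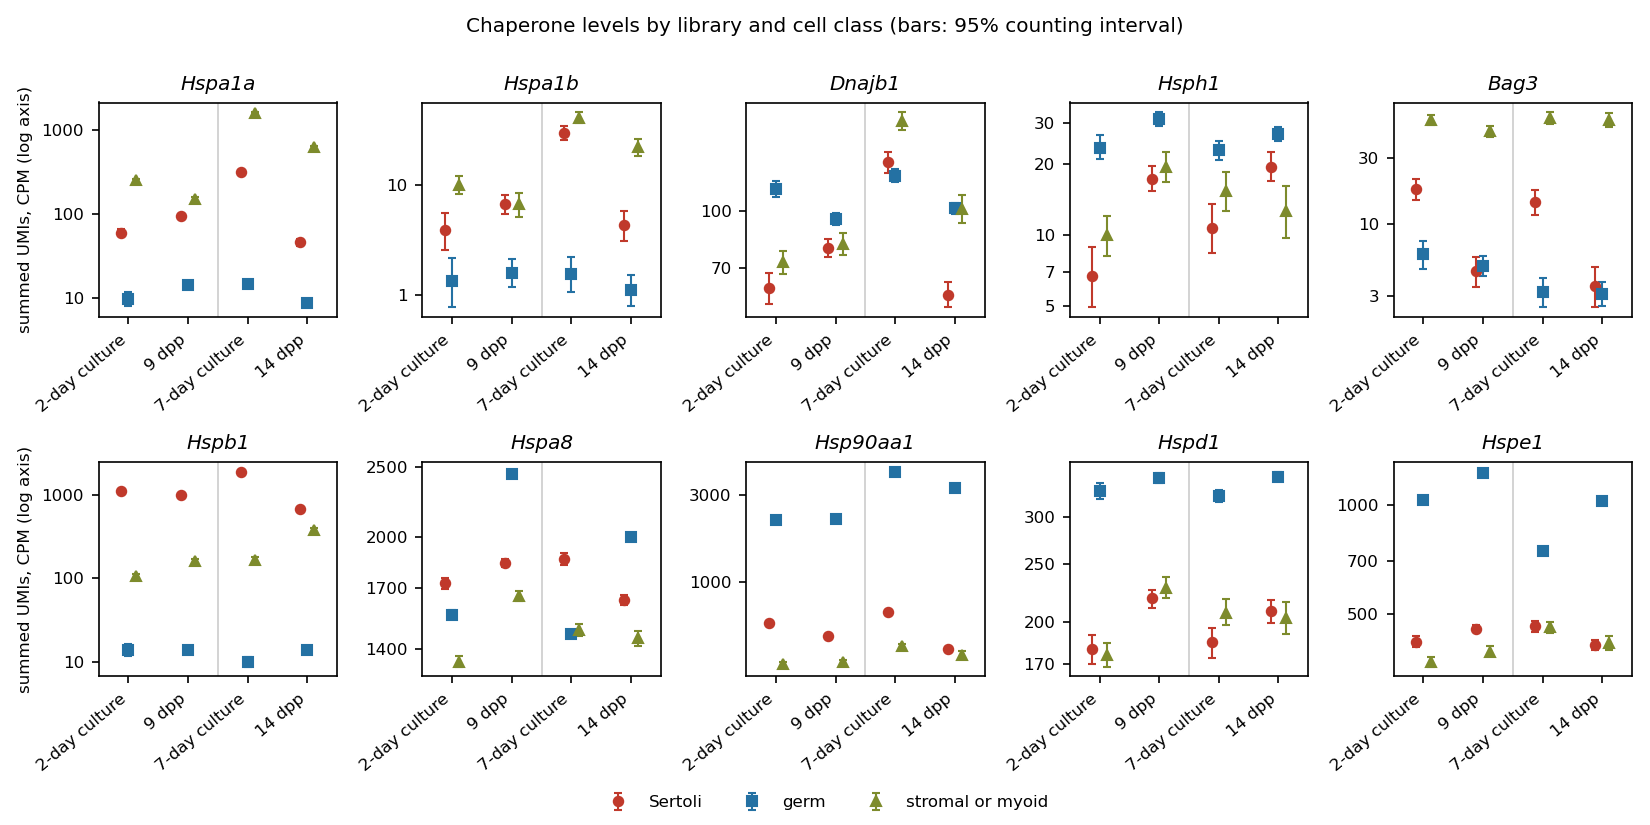
Level of each chaperone in CPM of the summed UMIs of a class (log axis), by library, for Sertoli (circles), germ (squares) and stromal or myoid cells (triangles), with 95% counting intervals as bars and each culture beside the in vivo library of the same age. Hspa1a in Sertoli cells reached 317 CPM in the 7-day culture against 46.2 to 95.2 CPM in the other libraries.

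As log2 ratios of CPM + 1, Hspa1a was at 2.75 (2.64 to 2.93, 6.74-fold) and Hspa1b at 2.56 (2.33 to 3.32, 5.88-fold) in the 7-day culture against 14 dpp. In the 2-day culture against 9 dpp both were at -0.67, with intervals of -0.84 to -0.52 for Hspa1a and -1.47 to -0.17 for Hspa1b. The sign of the difference between culture and in vivo was therefore opposite at the earlier and the later time. For Hspa1b it was not opposite in cells of 5000 to 20000 UMIs, where the earlier ratio was 0.08. The 7-day culture stood 5.25-fold above the 2-day culture for Hspa1a, and 14 dpp stood 2.04-fold below 9 dpp, 2 comparisons that use the same libraries again.

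A partner of HSP70 followed the inducible genes and another did not. Dnajb1, the J-domain protein that hands clients to HSP70, stood at 61.6, 136, 79.3 and 59.2 CPM. The 7-day culture was again the highest, at a log2 ratio of 1.18 (1.05 to 1.35) to 14 dpp, while the 2-day culture and 14 dpp overlapped. Hsph1, an exchange factor of the HSP110 group, stood at 6.74 CPM (4.95 to 8.96) and 10.8 CPM (8.41 to 13.6) in the 2-day and 7-day cultures. It stood at 17.4 CPM (15.4 to 19.7) and 19.6 CPM (17.0 to 22.5) at 9 and 14 dpp. Both cultures were thus below both in vivo libraries for Hsph1, with log2 ratios of -1.25 (-1.85 to -0.92) and -0.80 (-1.27 to -0.46) to the partners of the same age.

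Bag3 and Hspb1 stood above their in vivo partners in both cultures. Bag3, the co-chaperone that links HSP70 to small heat shock proteins and to autophagy, stood at 17.9 CPM (14.9 to 21.3) and 14.3 CPM (11.6 to 17.6) in the 2-day and 7-day cultures. It stood at 4.51 CPM (3.49 to 5.72) and 3.52 CPM (2.47 to 4.88) at 9 and 14 dpp. The cultures overlapped each other, as did the in vivo libraries, and the log2 ratios were 1.78 (1.55 to 2.44) and 1.76 (1.45 to 2.62). These levels rest on 36 to 125 UMIs per library. Stromal or myoid cells held 3.06-fold to 12.71-fold more Bag3, and the part of their transcripts in these levels was not tested. Hspb1, the small heat shock protein HSP27, stood at 1119 and 1875 CPM in the cultures and at 1001 and 684 CPM at 9 and 14 dpp. Its log2 ratio was 0.16 (0.12 to 0.20) at the earlier time and 1.45 (1.41 to 1.50, 2.74-fold) at the later one, where the level in vivo was also lower than at 9 dpp.

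The constitutive and mitochondrial members lay close together, and Hsp90aa1 less so. Hspa8, which folds new proteins in unstressed cells, stood between 1634 and 1864 CPM in the 4 libraries, with log2 ratios of -0.09 and 0.19 to the partners of the same age. Hsp90aa1, the stress-responsive HSP90, stood at 591, 681, 505 and 426 CPM, with log2 ratios of 0.22 and 0.68 (0.62 to 0.74). Hspd1 and Hspe1, which form the chamber and the lid that fold proteins in mitochondria, had log2 ratios of -0.28 and -0.12 at the earlier time and of -0.17 and 0.17 at the later one. All 4 genes were within 2-fold in both pairs, but Hsp90aa1 in the later pair ran from -0.14 to 2.82 with other processing.

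Counted over the 10 members, 5 were at least 2-fold higher and 0 lower in 7-day cultured Sertoli cells than at 14 dpp: Hspa1a, Hspa1b, Bag3, Hspb1 and Dnajb1. The split of reads between Hspa1a and Hspa1b, which count as separate members, is uncertain. Of all genes tested, 7.89% were higher and 5.56% lower by that fold, and the median log2 ratio was 0.93 for the members and 0.00 for all genes. A gene was tested with at least 50 UMIs over all cells, so genes scarce in a class are among them. The added 1 CPM draws ratios of these towards 0, so shares of all genes, here and below, are not matched to the members' levels. In the 2-day culture against 9 dpp, 1 member was higher (Bag3) and 1 lower (Hsph1), against 5.62% and 4.65% of all genes, and the median was -0.20 against -0.05. From 9 to 14 dpp 1 member (Hspa1a) was lower and 0 higher, against 6.14% and 4.09%. From the 2-day to the 7-day culture 3 were higher (Hspa1a, Hspa1b and Dnajb1) and 0 lower, against 2.17% and 3.37%, and with cells weighted equally Dnajb1 (1.13) was below 2-fold (0.94). The last pair of comparisons shares its libraries with the first pair.

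**Figure D2:**
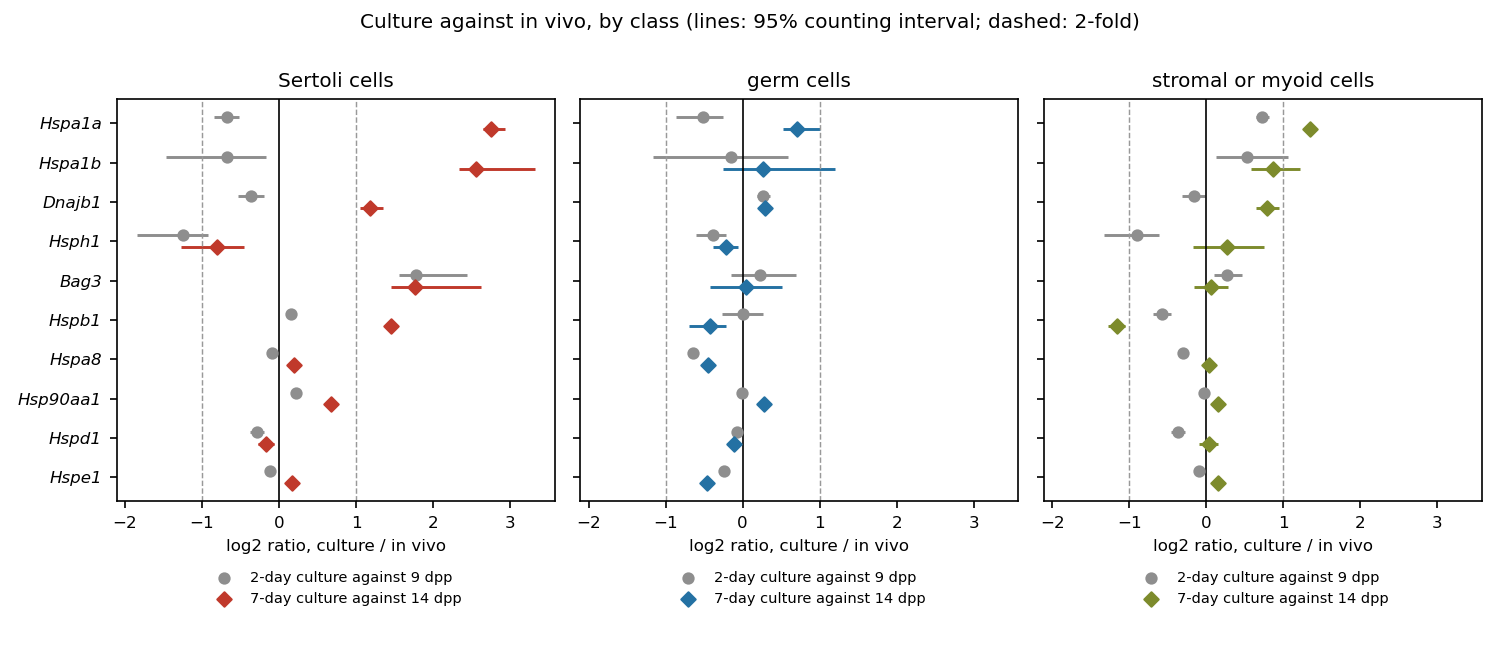
Log2 ratio of CPM + 1 for each chaperone in Sertoli, germ and stromal or myoid cells, culture against the in vivo library of the same age, with 95% counting intervals as bars and dashed lines at 2-fold. In Sertoli cells Hspa1a and Hspa1b sit at -0.67 in the 2-day culture and at 2.75 and 2.56 in the 7-day culture, whereas Bag3 sits at 1.78 and 1.76.

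Each ratio in Sertoli cells was recomputed under 12 other ways of processing. In the later pair Hspa1a (2.54 to 3.06), Hspa1b (1.49 to 2.78) and Hspb1 (1.35 to 1.67) were past 2-fold in all 12 of them. Dnajb1 fell short with classes taken from clusters (0.90), and Bag3 fell short with 10 CPM added in place of 1 (0.85). For the earlier pair, Bag3 fell short with 10 CPM added (0.94), Hsph1 was past 2-fold in 10 of 12 (-1.40 to -0.71), and Hspa1b turned to 0.08 in cells of 5000 to 20000 UMIs. The lower Hspa1a at 14 dpp than at 9 dpp was past 2-fold in 7 of 12 (-1.40 to -0.90). Hsp90aa1 in the later pair ran from -0.14 with classes from clusters to 2.82 with an estimate of free RNA subtracted, and germ cells carried 7.73-fold more of its transcript than Sertoli cells at 14 dpp, so no direction is given for it. From 9 to 14 dpp it was at -0.25 and ran from -2.32 with free RNA subtracted, past 2-fold, to 0.63 with classes from clusters.

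Some properties of the Sertoli libraries moved with the inducible genes. A list of 14 immediate early genes, which cell release and stress induce within minutes, summed to 3493, 9024, 2428 and 1032 CPM. All 14 had UMIs in each library. The 7-day culture was highest and 14 dpp lowest, as for Hspa1a, but the 2-day culture was above 9 dpp where Hspa1a was below it. Germ transcripts and the mitochondrial share, given above, were highest at 14 dpp. The part of these in the chaperone differences was not tested. In bins of depth, Hspa1a in the 7-day Sertoli cells stood at 407, 377, 360.1 and 260.0 CPM for cells under 5000, 5000 to 10000, 10000 to 20000 and over 20000 UMIs. The same bins at 14 dpp gave 31.8, 58.9, 45.7 and 41.4 CPM, so that the 7-day culture was higher in every bin. The unnamed low-depth cluster of the 2-day culture (median 1200 UMIs) and the main one (7315 UMIs) stood at 50.1 and 60.6 CPM of Hspa1a, 936 and 1137 CPM of Hspb1 and 16.2 and 18.1 CPM of Bag3. Hsph1 stood at 12.9 and 6.13 CPM and Hspa1b at 1.62 and 4.09 CPM, which in the former cluster rest on few UMIs. At 14 dpp, 111 Sertoli cells fell in a cluster with 274 CPM of germ genes that had not been used to set classes, against 70.5 CPM in the main cluster. Without that cluster the log2 ratio of Hspa1a in the later pair was 2.68.

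Cell by cell, Hspa1a transcripts were found in more Sertoli cells of the 7-day culture. With every cell thinned to 2000 UMIs, 35.2% of 511 cells (31.1 to 39.5%) had a UMI of Hspa1a in the 7-day culture and 7.33% of 778 cells (5.60 to 9.39%) at 14 dpp. The share was 9.09% of 737 cells in the 2-day culture and 18.8% of 851 cells at 9 dpp. Thinning left out 431, 22, 14 and 67 cells that had fewer UMIs. Without thinning the shares were 21.7%, 64.4%, 69.4% and 35.1%, so that 9 dpp, the deepest library, came first. Of the Sertoli, germ and stromal or myoid classes, the gene was lowest in germ cells. Their thinned shares were 1.46 to 2.99%, below every Sertoli share, at median depths of 4073 to 11120 UMIs against 7131 to 14403 UMIs in the Sertoli cells thinned. Cells with 3 or more thinned UMIs made up 7.24% of 7-day Sertoli cells and 0.271 to 0.588% in the other libraries.

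**Figure D3:**
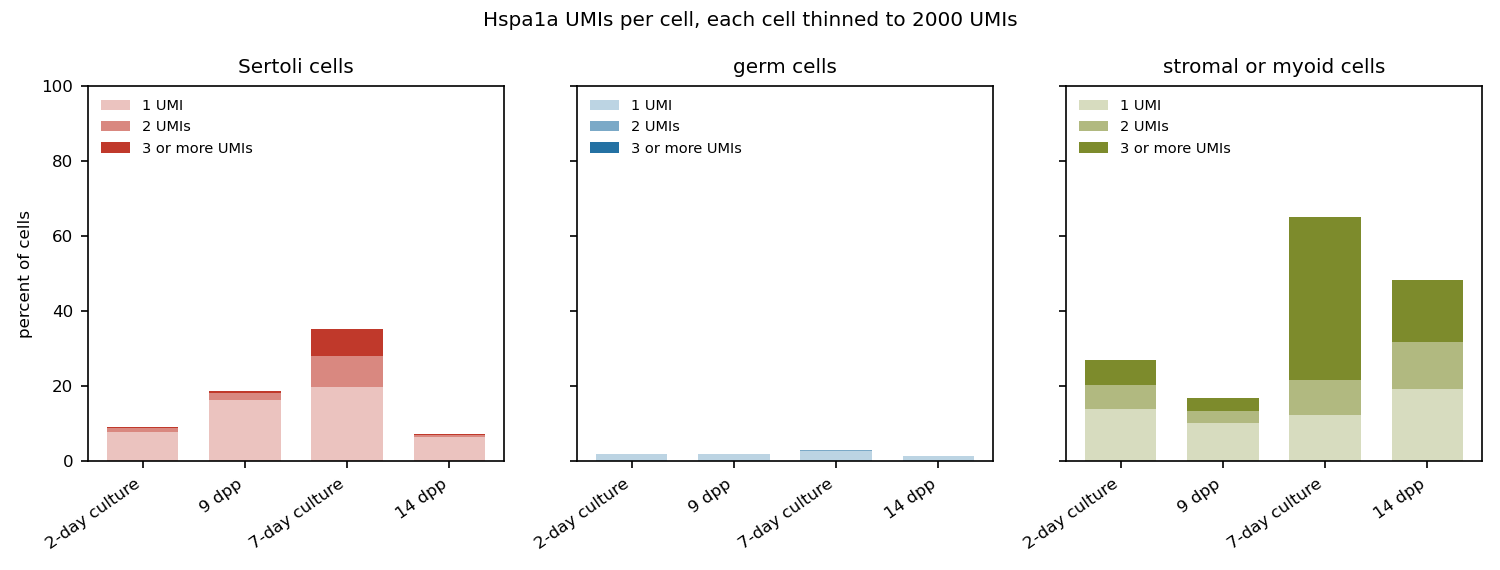
Share of cells with a given number of Hspa1a UMIs after thinning every cell to 2000 UMIs, by library, in Sertoli, germ and stromal or myoid cells. The 7-day culture holds the most cells with 3 or more UMIs in the Sertoli class (7.24%) and in the stromal or myoid class (43.6%).

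Hspb1 differed from this in that most Sertoli cells had a UMI of it in every library, against 1.72 to 2.84% of thinned germ cells. At 2000 UMIs, 82.1%, 90.4%, 82.4% and 66.7% of Sertoli cells had a UMI of Hspb1 (83.5%, 96.8%, 98.3% and 90.7% without thinning). Cells with 3 or more made up 58.7% in the 7-day culture and 18.9% at 14 dpp. Dnajb1 was found in 11.7%, 21.1%, 14.7% and 10.8% of thinned cells (26.0%, 59.8%, 64.9% and 43.9% without thinning). Bag3 was found in 3.66% and 3.72% in the cultures and in 0.705% and 7 of 778 cells in vivo (9.59%, 13.9%, 7.75% and 3.67% without thinning), shares near 1 UMI per cell from which no more can be read.

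The stromal or myoid class, which joins fibroblast-like cells with the contractile cells around the tubules, had the highest Hspa1a of the 3 large classes. Its level was 251 CPM (242 to 261), 1584 CPM (1555 to 1614), 152 CPM (144 to 159.6) and 619 CPM (598 to 641). The stromal or myoid cells were above the Sertoli cells in 4 of 4 libraries, by 1.59-fold to 13.13-fold, and above the germ cells by 9.91-fold to 100.21-fold. With every cell at 2000 UMIs, 26.9%, 65.3%, 16.9% and 48.3% of them had a UMI of Hspa1a (36.6%, 71.8%, 28.7% and 59.0% without thinning). The level differed with depth in the 7-day culture, where cells under 5000 UMIs stood at 2136 CPM and the 60 cells of 10000 to 20000 UMIs at 651 CPM. The latter bin held 608 CPM at 14 dpp (24 cells), and 148 CPM in the 2-day culture (101 cells) against 184 CPM at 9 dpp (142 cells).

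Over all cells of this class Hspa1a was higher in culture than in vivo at both times, at log2 ratios of 0.73 (0.64 to 0.82) and 1.35 (1.30 to 1.41), but in cells of 10000 to 20000 UMIs the earlier direction was the opposite. In cells of 5000 to 20000 UMIs the latter was 0.78, below 2-fold. It was also higher at 14 dpp than at 9 dpp, at 2.02, where the Sertoli cells of the same libraries were at -1.03. Clustering split this class by condition as well: most of its cells lay in clusters 0 and 5 (1140 and 1242 cells) and 0 and 12 (656 and 773) in the cultures, and in clusters 7 and 14 (739 and 730) and 7 and 17 (427 and 610) in vivo. Hspa1a stood at 310.0 and 218 CPM, 2448 and 1218 CPM, 148 and 156 CPM, and 577 and 690.3 CPM in these clusters. Hspa1b (10.1, 41.8, 6.72 and 22.4 CPM) and Dnajb1 (72.5, 176, 81.4 and 101 CPM) were likewise highest in the 7-day culture. Bag3, by contrast, lay between 46.9 and 58.8 CPM in the 4 libraries, 3.06-fold to 12.71-fold above the Sertoli cells of the same library. Its log2 ratios to the in vivo partners were 0.27 (0.10 to 0.46) and 0.06 (-0.16 to 0.28) in this class, and the difference to the ratios in Sertoli cells was not tested.

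Hspb1 in the stromal or myoid class stood at 108 and 168 CPM in the cultures and at 160.3 and 378 CPM at 9 and 14 dpp. The 7-day culture was below 14 dpp at a log2 ratio of -1.16 (-1.27 to -1.06), where the Sertoli cells were at 1.45. Genes of contractile cells were also lower in each culture than in its partner. Acta2, the actin of contractile cells, stood at 2252 and 3653 CPM in the cultures and at 6432 and 8623 CPM in vivo. Myh11, a smooth muscle myosin, stood at 70.8, 155, 262 and 485 CPM. At 14 dpp the clusters of the class ranged from 76.9 to 639 CPM of Hspb1, and in the 7-day culture from 80.7 to 327 CPM. Whether the mix of cells or the level per cell differed was not tested, nor was the part of either in the Hspb1 difference. Over the members, 1 was 2-fold higher (Hspa1a) and 1 lower (Hspb1) in the later pair, against 3.94% and 4.48% of all genes. In the earlier pair 0 of 10 reached 2-fold, against 4.75% of all genes higher and 5.88% lower. From 9 to 14 dpp 3 were higher (Hspa1a, Hspa1b and Hspb1) and 0 lower, against 2.00% and 2.47%, and from the 2-day to the 7-day culture 3 were higher (Hspa1a, Hspa1b and Dnajb1) and 0 lower, against 2.61% and 2.78%. The immediate early list summed to 3904, 8463, 4387 and 4936 CPM in this class, highest in the 7-day culture as Hspa1a was.

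Germ cells differed from the other large classes in the level of several of the 10 genes. Hsp90aa1 stood at 2196, 4012, 2206 and 3297 CPM in germ cells, 3.71-fold to 7.73-fold above Sertoli cells and 6.08-fold to 9.05-fold above stromal or myoid cells. Hspe1, Hspd1 and Hsph1 were above Sertoli cells in 4 of 4 libraries too, by 1.61-fold to 2.68-fold, 1.59-fold to 1.84-fold and 1.35-fold to 3.19-fold. Hspa1a stood at 8.71 to 14.8 CPM and Hspb1 at 10.0 to 13.8 CPM, and Hspb1 was 46.54-fold to 170.13-fold higher in Sertoli cells. Hspa8 and Dnajb1 had no fixed order between germ cells and the other classes, while Sertoli cells were above stromal or myoid cells in 4 of 4 libraries for Hspa8 (by 1.11-fold to 1.28-fold) and below them in 4 of 4 for Dnajb1 (log2 differences of -0.76 to -0.04).

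Between culture and in vivo, 0 of 10 members reached 2-fold in germ cells in either pair, against 3.97% of all genes in the earlier pair and 2.68% in the later one. With free RNA subtracted Hspb1 was past 2-fold in both pairs, at 1.72 and -2.41 (0.00 and -0.42 without). Hspa8 was the member furthest from 0 in the earlier pair (1560 against 2445 CPM, log2 ratio -0.65). Hspa1a was furthest in the later pair (14.8 against 8.71 CPM, 0.70), but was at 0.03 with free RNA subtracted. From 9 to 14 dpp and from the 2-day to the 7-day culture, 0 of 10 reached 2-fold as well, against 5.37% and 7.16%. The immediate early list stood at 235 to 344 CPM in germ cells of the 4 libraries.

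Within the germ class, Hsp90aa1, Dnajb1 and Hspe1 differed more between ranges of meiotic marker share than between culture and in vivo. Germ cells were put in 3 ranges by the share of their germ marker UMIs that came from 4 meiotic genes (Sycp1, Sycp3, Hormad1 and Tex101), a range and not a cell type. Of 11521 germ cells, 3349 lay within 5 percentage points of the lower limit at 20% and 758 of the upper one at 50%. In the 7-day culture Hsp90aa1 stood at 2327 CPM in cells under 20% and at 7084 CPM in cells at or above 50%, and at 14 dpp at 2690 and 6263 CPM. The log2 difference between these ranges was 0.80, 1.61, 0.64 and 1.22. Dnajb1 was also higher in the upper range, by 1.54, 1.02, 1.08 and 1.26.

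The mitochondrial lid went the other way. Hspe1 stood at 1554 CPM in the lower and 234 CPM in the upper range at 14 dpp, and the log2 difference was -2.18, -2.35, -2.03 and -2.73 in the 4 libraries in the same order. Hspd1, whose protein works with it, was at -0.01, -0.86, 0.15 and -0.55, so it was lower in the upper range in the 7-day culture and at 14 dpp, by less than Hspe1, and close to 0 or above in the other libraries. Hspa8 was lower in the upper range by a log2 difference of -0.45 to -0.90. Hspa1a in the upper range stood at 13.5 CPM (100 UMIs) in the 7-day culture and at 2.42 CPM (17 UMIs) at 14 dpp, over 2-fold apart, though it was not in the class as a whole. Free RNA, estimated at 2.65% and 4.69% in the germ class of these libraries, was not subtracted within ranges. Whole libraries held 393 and 95.9 CPM of Hspa1a, and the class ratio was 0.03 with free RNA subtracted. The part of free RNA in the difference within this range was not tested. In the earlier pair Hspa1a in the upper range stood at 10.8 CPM (5.74 to 18.4) and, from 1 UMI at 9 dpp, 2.01 CPM (0.0509 to 11.2), which overlap. For comparison Hspa2, the HSP70 of meiosis and no member, was at 1.66, 4.67, 2.42 and 5.18. The upper range held 478, 901, 90 and 826 cells, and its cells had lower median depths than the lower range in every library (2282 against 4802, 6002 against 7899, 5629 against 13915 and 4553 against 12742 UMIs).

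**Figure D4:**
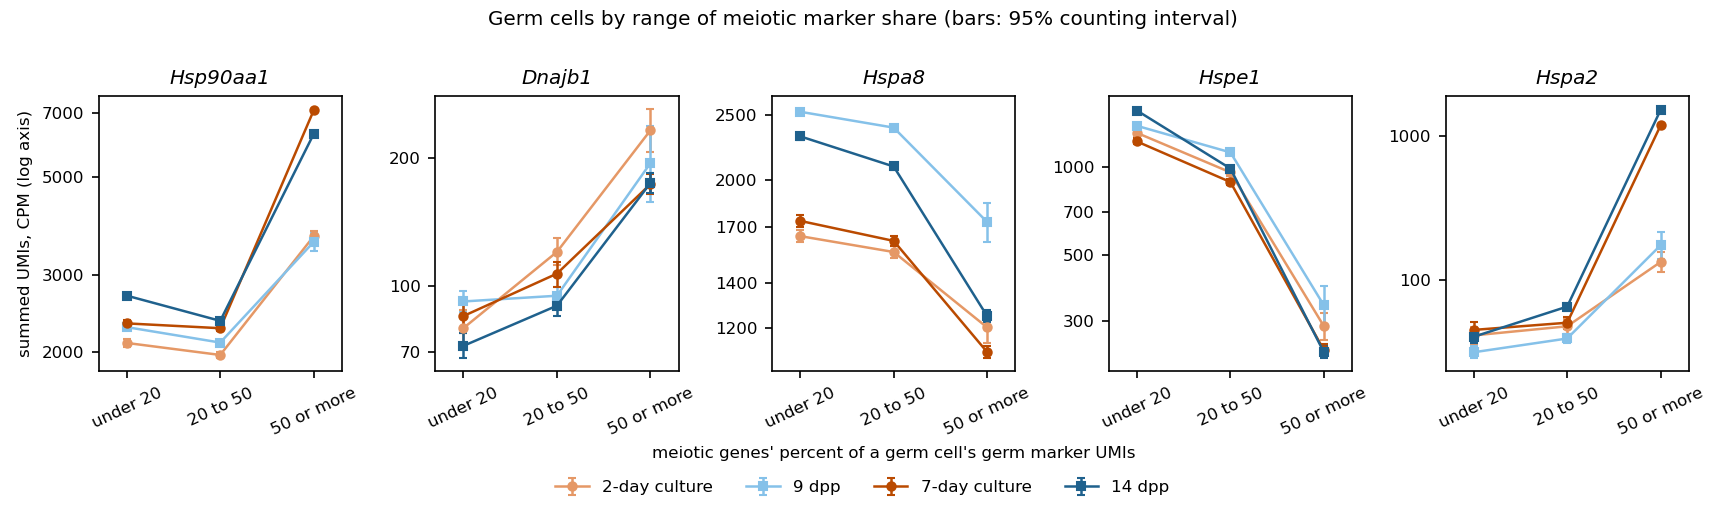
Level of Hsp90aa1, Dnajb1, Hspa8, Hspe1 and, for comparison, Hspa2 in CPM in germ cells (log axis), by range of the meiotic share of germ marker UMIs and by library, with 95% counting intervals as bars. Hsp90aa1 is highest in the range of 50% or more in all 4 libraries (3562 to 7084 CPM) and Hspe1 lowest there (234 to 338 CPM).

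Leydig, endothelial and macrophage classes were small, with 29 to 46, 18 to 39 and 10 to 45 cells per library. In Leydig cells, which make testosterone and start its synthesis in mitochondria, Hspe1 stood at 879 and 1005 CPM in the cultures and at 2218 and 3665 CPM at 9 and 14 dpp. Hspd1 stood at 585, 656, 1256 and 1131 CPM in the same order. Both mitochondrial genes were thus lower in both cultures, at log2 ratios of -1.33 (-1.54 to -1.14) and -1.87 (-2.04 to -1.69) for Hspe1 and of -1.10 (-1.36 to -0.86) and -0.78 (-1.02 to -0.55) for Hspd1, in 32, 29, 46 and 36 cells. Summed stromal or myoid markers in these cells were 423 and 853 CPM in the cultures and 1330 and 1054 CPM in vivo. Leydig markers summed to 9889, 13232, 18911 and 13494 CPM, and 14, 13, 27 and 25 of the cells lay at 80 to 90% of marker UMIs, near the class limit. The part of these in the differences was not tested. Hspa1a in Leydig cells was at 136, 663, 435 and 385 CPM.

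Over whole libraries, fewer cells of a class and less RNA per cell cannot be told apart. Hspa1a stood at 116, 393, 68.3 and 95.9 CPM of all kept cells, and Bag3 at 27.4, 18.1, 12.5 and 9.36 CPM. In the 7-day culture against 14 dpp 2 members were 2-fold higher, Hspa1a (2.02) and, at the limit, Hspa1b (0.91 to 1.28, past 2-fold in 3 of 7 alternatives), against 3.60% of all genes. In the 2-day culture against 9 dpp 1 was higher, Bag3 (1.08), against 4.19%. That call held in 4 of 7 alternatives, and Bag3 was at 0.59 with cells weighted equally. None of the 10 was 2-fold lower in either pair, where 2.67% and 3.41% of all genes were. From 9 to 14 dpp 0 of 10 were past 2-fold, against 4.09% higher and 1.97% lower, and from the 2-day to the 7-day culture 3 were higher (Hspa1a, Hspa1b and Hsp90aa1) and 0 lower, against 4.52% and 2.37%. The median of the members was 0.35 and -0.17, against 0.00 and -0.12 for all genes.

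Most of the wider chaperone network stayed within 2-fold in Sertoli cells. Of 85 further genes in 10 lists, 4 were 2-fold higher and 5 lower in the 2-day culture against 9 dpp, and 5 higher and 7 lower in the 7-day culture against 14 dpp, with medians of -0.15 and -0.17. These shares are near those of all genes given above for Sertoli cells (5.62% and 4.65%, then 7.89% and 5.56%). The HSF regulators (4 genes), the measured subunits of the TRiC chaperonin (7 genes), the mitochondrial chaperones and proteases (8 genes) and the cold-inducible RNA-binding proteins (2 genes) had 0 genes past 2-fold in both pairs. Hsf1, the factor behind the heat shock response, stood at 24.1, 24.5, 34.0 and 25.8 CPM. Among the 12 genes of HSP90 and its co-chaperones 0 and 1 were lower, and among the 11 J-domain proteins 0 and 1 were higher. That gene, Dnajb4 (1.10 in the later pair), was picked out after its value was seen, as was Serpinh1 (2.08), the collagen chaperone and the 1 gene of the 7 other heat-inducible ones past 2-fold.

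Genes of 3 lists were past 2-fold in the same direction in both pairs. No list was tested, and each count can be read beside the same shares of all genes. Of 6 measured small heat shock proteins besides Hspb1, 3 and 2 were higher and 0 lower. Hspb8, the partner of BAG3 in clearing aggregates, stood at 85.3 and 51.2 CPM in the 2-day and 7-day cultures and at 10.1 and 4.41 CPM at 9 and 14 dpp (log2 ratios 2.96 and 3.27). Cryab, αB-crystallin, stood at 92.6, 41.5, 14.5 and 3.62 CPM (2.60 and 3.20). They are named because they were 2-fold apart in both pairs. Both were lower in the 7-day than in the 2-day culture, where Hspa1a was higher. Of 16 reticulum chaperones, 1 was higher and 3 lower in the earlier pair, and 1 higher and 5 lower in the later pair, with medians of -0.45 and -0.93 against 0.97 and 0.86 for the small heat shock proteins. Hsp90b1, the HSP90 of the reticulum, stood at 370.4, 416, 853 and 1104 CPM (-1.20 and -1.41), and Pdia4, a disulfide isomerase, at 12.9, 12.8, 48.8 and 46.5 CPM (-1.84 and -1.78). Herpud1, which serves the removal of misfolded proteins, was higher (1.11 and 1.10). Of the 12 genes of the HSP70 family and its exchange factors 2 and 1 were lower and 0 higher, with medians of -0.34 and -0.21. Hspa4l, an exchange factor abundant in germ cells, was lower in both pairs (-1.11 and -1.42, 21.8, 40.5, 48.1 and 110.4 CPM), and it was highest at 14 dpp, where Sertoli cells carried most germ transcripts.

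**Figure D5:**
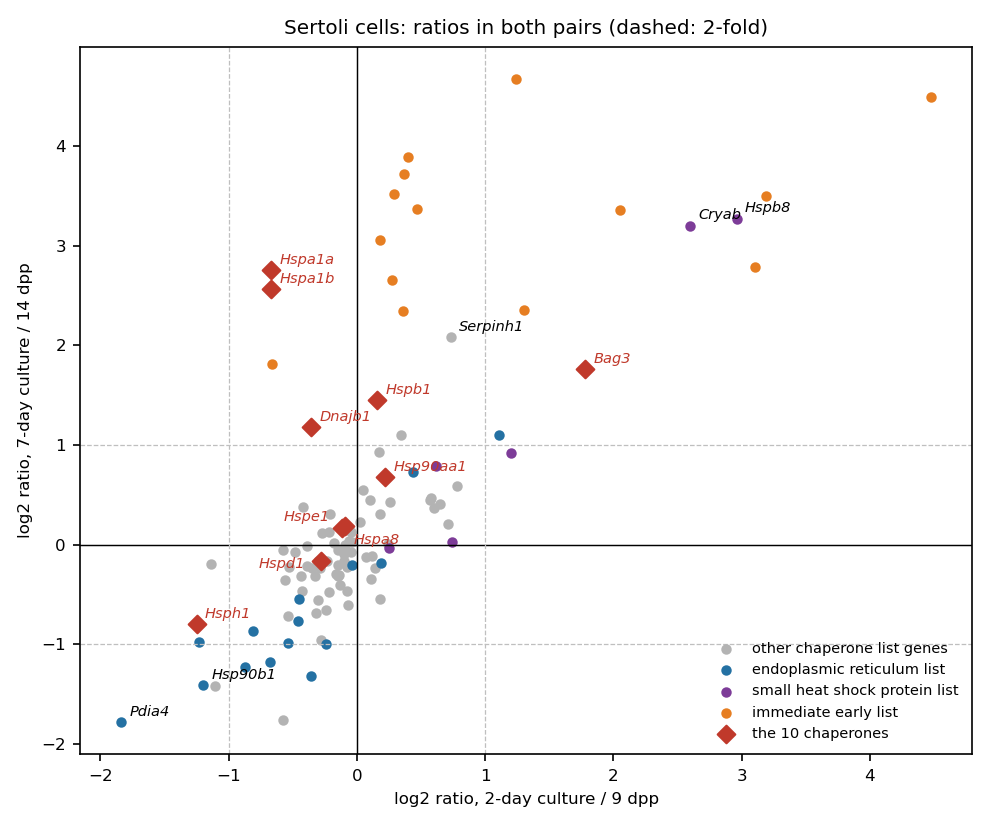
Log2 ratios of CPM + 1 in Sertoli cells, the 2-day culture against 9 dpp on the horizontal and the 7-day culture against 14 dpp on the vertical axis, for the 10 chaperones (diamonds) and the genes of the wider lists (dots), with dashed lines at 2-fold. Hspa1a (-0.67 and 2.75) lies upper left, Bag3 (1.78 and 1.76), Hspb8 (2.96 and 3.27) and Cryab (2.60 and 3.20) upper right, and Hsph1 (-1.25 and -0.80) and Pdia4 (-1.84 and -1.78) lower left.

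Of the 14 immediate early genes, 6 were 2-fold higher in the 2-day culture and 14 in the 7-day culture, and 0 were lower. Socs3 (4.48 and 4.49), Ier3 (3.19 and 3.50), Zfp36 (3.10 and 2.78) and Junb (2.05 and 3.36) were the 4 genes with the largest values of the smaller of their 2 ratios. In the later pair Zfp36 and Junb were below the median of the list. The median of the list was 0.44 and 3.37.

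The members did not form 1 pattern over classes and libraries. Over 16 points (4 libraries by the Sertoli, germ, stromal or myoid and Leydig classes, which share libraries and depth), log2 levels of Hspa1a went with those of Hspa1b (Pearson's r = 0.92) and Bag3 (0.83) and against those of Hsp90aa1 (-0.81), and Hspd1 went with Hspe1 (0.93). Of 6483 other genes, those most like the mean of the 10 standardized members were Rps27 (r = 0.75), Cdip1 (0.74), Igf1r (0.72), Aldh3a1 (0.72), Zfp950 (0.71), Cdon (0.70), Rpl37a (0.68) and Iqgap2 (0.68). With this mean Hspb1 (-0.21), Hsp90aa1 (-0.14) and Hsph1 (-0.12) had a negative r, and the other members had 0.33 to 0.74. Aldh3a1 (0.0672 to 0.392 CPM) and Iqgap2 (0.308 to 0.860 CPM) were near 0 in Sertoli cells. These correlations describe the points and carry no test.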

How the data were processed

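The deposited matrices hold raw counts of UMIs per gene and barcode for 4 libraries (Chromium Single Cell 3′ v2, per the labels), which the authors made with Cell Ranger 3.0.2 on mm10, per the file headers and the submitters' processing notes. The annotation release, cell calling and strand setting are not given in the sources used here. Of 31053 gene identifiers, 31011 were found in GENCODE M21. For 35 symbols listed under several identifiers the counts were summed.

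The cells kept had at least 500 genes and a mitochondrial share of at most 20%, and Scrublet (scanpy 1.11.5, expected rate 6%) calls, 1.89 to 3.55% per library, were removed. UMIs were summed per class and library and scaled to CPM with exact Poisson intervals. Log2 ratios used CPM + 1, and their intervals are exact conditional binomial intervals of the CPM ratio without the constant. A gene at least 2-fold apart was counted. Shares have Clopper-Pearson intervals. Clusters came from Leiden (leidenalg 0.10.2), and TMM factors from edgeR 4.0.16. Free RNA was estimated from genes of another class. Only the ratio and its interval were tested on simulated data, which were Poisson counts without variation between libraries. Python 3.11.15, numpy 2.4.6, scipy 1.17.1 and R 4.3.3 were used.

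The members and lists were chosen with earlier results of these data known. The 80% limit, the 3-marker minimum and the naming of clusters were set after chaperone ratios at limits of 70, 80 and 90% had been seen. Genes outside the members are named where they were 2-fold apart in the same direction in both pairs (at most 4 per list, by the smaller ratio), and 8 genes by likeness to the mean of the members. Dnajb4, Serpinh1, Hsf1, Hspa2, Acta2 and Myh11 are named outside this rule, chosen after earlier values were seen. Cct6a, of the TRiC list, and Rpa4, a germ gene, were not analysed here.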

Additional observations from a re-analysis of the deposited data

Results flagged for a closer look

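In 8 cases a member had ratios of opposite sign and at least 0.5 on the log2 scale in 2 of the Sertoli, germ and stromal or myoid classes of the same libraries. The small classes were not compared in this way. None of these differences between classes was tested, since each group is 1 library. In the 2-day culture against 9 dpp, Hspa1a was at -0.67 in Sertoli cells and at 0.73 in stromal or myoid cells, and the latter also stood against -0.52 in germ cells. Hspa1b in the same pair was at -0.67 in Sertoli (0.08 in cells of 5000 to 20000 UMIs) and 0.53 in stromal or myoid cells. In the 7-day culture against 14 dpp, Hspb1 was at 1.45 in Sertoli and -1.16 in stromal or myoid cells. From 9 to 14 dpp, Hspa1a was at -1.03 in Sertoli and 2.02 in stromal or myoid cells, and the latter also stood against -0.67 in germ cells. Over the same interval Hspa1b was at -0.54 in Sertoli and 1.60 in stromal or myoid cells, and Hspb1 at -0.55 and 1.23. The Sertoli value of Hspa1b over this interval was 0.03 in cells of 5000 to 20000 UMIs.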

How the results depend on the processing

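No paired analysis was possible because each group is 1 library and the groups carry no replicate numbers beyond 1. For the same reason no replicate could be left out. Counting error limits Hspa1b, Hsph1 and Bag3 most. Of the medians, shares and list counts under each alternative, 101 stayed within their counting error, 15 moved beyond it and 2 turned their sign, and of the values for single members in Sertoli and in stromal or myoid cells, culture against in vivo, 405, 69 and 6 did so. The median of the members in Sertoli cells, 7-day culture against 14 dpp (0.93, 5 members 2-fold higher), was 0.76 with 10 CPM added (4 higher), 1.06 with a class limit of 90% (5), 0.57 with classes from clusters (4) and 1.35 with free RNA subtracted (6). It was 0.77 with a limit of 70% (5) and 1.06 without the Sertoli cluster with most germ transcripts (5), alternatives chosen after seeing the data, as was the range of 5000 to 20000 UMIs. In Sertoli cells from 9 to 14 dpp the median was -0.45 with free RNA subtracted. Over whole libraries it was -0.01 in the earlier pair both with cells weighted equally and with TMM factors. In the later pair it was 0.31 in cells with at least 1000 genes and at most 10% mitochondrial UMIs, and 0.46 in cells of 5000 to 20000 UMIs. In stromal or myoid cells the median turned to 0.03 in the earlier pair with TMM factors and to 0.00 in the later pair in cells of 5000 to 20000 UMIs. Without thinning, the shares of Sertoli cells with Hspa1a were 21.7% and 64.4% after 2 and 7 days of culture and 69.4% and 35.1% at 9 and 14 dpp. A ratio was counted as turned only where its counting interval excluded 0. The 6 that turned were Hspa1b (0.08 in Sertoli cells, earlier pair) and Hsp90aa1 (-0.10 in stromal or myoid cells, later pair) in cells of 5000 to 20000 UMIs, and Hsp90aa1 in Sertoli cells of the later pair with classes from clusters (-0.14). Dnajb1 in stromal or myoid cells (0.03) and Hspe1 in Sertoli cells (0.02) turned in the earlier pair with cells weighted equally, and Hspe1 in stromal or myoid cells (0.06) with TMM factors. Turns outside these pairs and classes included Dnajb1 (-0.11) and Hspe1 (0.17) in germ cells of 5000 to 20000 UMIs in the earlier pair, and Hsp90aa1 in Sertoli cells from 9 to 14 dpp (-0.25), which was 0.63 with classes from clusters and -2.32 with free RNA subtracted. Hspa1b in Sertoli cells from 9 to 14 dpp (-0.54) turned to 0.03 in cells of 5000 to 20000 UMIs. The cause was not tested for any of these.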

Other observations

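Endothelial cells (39 and 18 after 2 and 7 days of culture, 19 and 22 at 9 and 14 dpp) had, in this order, Hspa1a at 28.7 CPM (15.7 to 48.2), 205 CPM (171 to 245), 3.66 CPM (0.0926 to 20.4, a single UMI) and 522 CPM (448 to 604). The library of 14 dpp was thus the highest for this class, whereas it was the lowest for Sertoli cells. Hspb1 in the same cells stood at 36.9, 36.4, 98.7 and 369 CPM, again highest at 14 dpp. Stromal genes not used for classes summed to 9275, 9253, 10646 and 15616 CPM in them. The immediate early list summed to 2401, 2894, 2921 and 4131 CPM, and the part of both was not tested. Macrophages had 0 UMIs of Hspa1a in 10 cells after 2 days of culture (exact Poisson upper bound 42.3 CPM) and 26.2 CPM after 7 days. In vivo they had 7.47 CPM at the earlier and 74.0 CPM (47.4 to 110.1) at the later age. These classes are small, and 16 of 22 endothelial cells at 14 dpp lay between 80% and 90% of marker UMIs, near the class limit.

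In germ cells Hspa2, the HSP70 of meiosis, stood at 54.0 and 455 CPM after 2 and 7 days of culture and at 38.4 and 362 CPM in vivo at the matching ages. The later libraries were far above the earlier ones in culture and in vivo alike, while the culture differed from its partner of the same age by log2 ratios of 0.48 and 0.33.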
